A study of Mus musculus with 2 samples.

Results

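Outside the large Dlk1-Meg3 domain, a handful of mouse microRNA genes sit at imprinted loci, where only the maternal or only the paternal copy of a gene is active. The 5 examined here are Mir335 of the Mest locus, Mir483 of Igf2, Mir675 of H19, and Mir296 and Mir298 of the Gnas locus. They were picked by gene symbol, by a rule that uses no measured value but was written with earlier results of these data known, and all 5 were found among the 2202 microRNA genes of the count files. Their levels came from small RNA libraries (RNA shorter than 30 nt) of gastrocnemius, a calf muscle, of 14-day-old female mice of the strain B6CASTF1/J, a C57BL/6J by CAST/EiJ hybrid. There is 1 group with 2 biological replicates, and the biosample name of replicate 1 speaks of 3 females, that of replicate 2 of 1. Both replicates carry the same donor identifier and no other tissue, age or treatment is given, so levels are described, and the spread between replicates may be partly technical. The counts do not separate the maternal from the paternal allele, so imprinting itself was not measured.

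As background, a microRNA is cut from a hairpin-shaped stretch of a longer transcript, and its seed, bases 2 to 8 of the mature strand, pairs with target messenger RNAs. Mest, which encodes a membrane protein of the hydrolase family, and Igf2, the fetal growth factor insulin-like growth factor 2, are expressed from the paternal chromosome. H19, a long non-coding RNA abundant in fetal muscle, is expressed from the maternal chromosome and shares enhancers with Igf2. The Gnas locus encodes a G protein subunit and several imprinted transcripts, among them Nespas, a paternally expressed antisense RNA. Igf2 and H19 are strongly expressed before birth and fall in most tissues afterwards.

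The 5 hairpins are shown first because each count pools both of its arms. All sequences are from RefSeq (GRCm38.p6, the assembly also named mm10), read 5′ to 3′ on the strand of the gene. All 5 matched the GENCODE M21 hairpins base for base. Only this reference was used, so sequence differences between the parental strains of the hybrid were not examined. Capitals mark the 5p and 3p mature strands.
Mir335 (chr6:30741299-30741396, + strand): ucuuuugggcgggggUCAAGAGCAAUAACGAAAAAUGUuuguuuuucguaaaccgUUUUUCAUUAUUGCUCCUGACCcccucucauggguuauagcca
Mir483 (chr7:142654924-142654996, - strand): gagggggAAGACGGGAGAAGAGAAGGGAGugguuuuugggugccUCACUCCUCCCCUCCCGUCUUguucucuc
Mir298 (chr2:174267504-174267585, - strand): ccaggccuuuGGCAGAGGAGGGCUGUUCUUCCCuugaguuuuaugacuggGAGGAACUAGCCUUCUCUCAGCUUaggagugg
Mir296 (chr2:174267047-174267125, - strand): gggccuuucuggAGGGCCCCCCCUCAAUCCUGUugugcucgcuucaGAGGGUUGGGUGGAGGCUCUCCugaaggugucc
Mir675 (chr7:142577064-142577147, - strand): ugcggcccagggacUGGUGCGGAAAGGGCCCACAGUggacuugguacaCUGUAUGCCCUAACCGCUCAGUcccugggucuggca

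The mature strands follow with the seed in capitals, to show that these microRNAs form no seed family among themselves.
miR-335-5p: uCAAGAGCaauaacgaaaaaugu
miR-335-3p: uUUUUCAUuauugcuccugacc
miR-483-5p: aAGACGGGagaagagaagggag
miR-483-3p: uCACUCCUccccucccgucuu
miR-298-5p: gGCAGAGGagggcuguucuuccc
miR-298-3p: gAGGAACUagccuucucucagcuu
miR-296-5p: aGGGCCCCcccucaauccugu
miR-296-3p: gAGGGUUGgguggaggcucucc
miR-675-5p: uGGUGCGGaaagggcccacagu
miR-675-3p: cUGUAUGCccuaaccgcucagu

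The 10 mature strands carried 10 different seeds. None of these seeds occurred in any other of the 1738 mature mouse sequences of the table. That table has an entry for 1032 of the 2202 genes, so the seeds of the others were not searched. So no other gene is described here as a seed relative. Nor did the hairpins hold long stretches of one another or of other annotated hairpins. The longest stretch that a member shared with another of the 2202 hairpins, on either strand, was 14 nt for Mir335 and 13 nt for Mir483. It was 12 nt for Mir298 and for Mir296, and 11 nt for Mir675. Every such stretch was shorter than the mature strands, which measured 21 to 24 nt. Among GENCODE transcripts outside the members, the miR-675 strands occurred in H19, their host, and the other 8 strands in none. Reads from the rest of the genome could not be checked in this way.

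Base composition set some of these strands apart. In miR-483-5p, 21 of 22 bases were purines, and no other mature sequence in the table had a purine share as high. Its partner miR-483-3p, which lies opposite it in the stem, held 2 purines in 21 bases. In miR-296-5p the longest run of a single base was 7 nt, a length reached by 7 of the 1738 mature sequences. The miR-335 strands were poor in G and C: 30.4% of miR-335-5p, against 68.2% of miR-296-3p. At the level of the hairpin, Mir335 had 42.9% GC, below the median of 50.9% over the 367 expressed genes. Mir483 had 58.9%, Mir298 53.7%, Mir296 63.3% and Mir675 63.1%, all above that median.

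The predicted fold of each hairpin was also computed (RNAfold minimum free energy). Mir675 had the most stable hairpin of the 5, at -56.0 kcal/mol over 84 nt. Per base this came to -0.67 kcal/mol, and only 1.91% of expressed hairpins were lower. Mir296 stood at -0.55 and Mir298 at -0.52 kcal/mol per base. Mir483 (-0.46) and Mir335 (-0.45) lay near the median of expressed hairpins, -0.43 kcal/mol per base. The members with the lowest counts thus had the lowest predicted energies per base, a description of 5 hairpins that was not tested.

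The annotation places the hairpins in different kinds of surroundings. Mir335 lay inside Mest on its strand, in an intron of all 7 overlapping Mest transcripts. In the Mest transcripts of 12 exons this was intron 2. Mir483 lay in an intron of 7 Igf2 transcripts, intron 2 in 6 of them, and of Gm49394, a protein-coding gene model over the same stretch. Mir675 was wholly inside exon 1 of 2 H19 transcripts and exon 2 of another, and it lay in intron 1 of the remaining transcript that spans it. Mir296 and Mir298 overlapped no other gene on their strand. Mir298 and Mir296 were 378 bp apart, and the nearer end of Nespas, on the same strand, was 13.7 kb upstream of Mir298. Mir675 and Mir483 were 77.8 kb apart. No other microRNA gene lay within 10 kb of Mir335, Mir483 or Mir675, and each Gnas locus gene had the other as its only such neighbour.

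**Figure D1:**
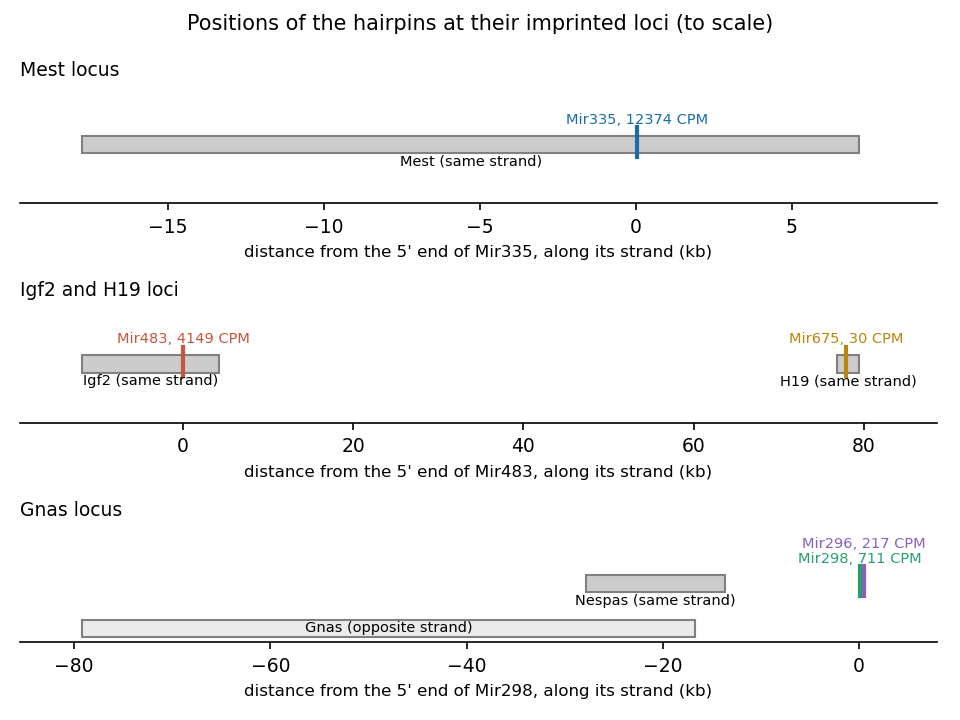
The hairpins (coloured bars) are drawn to scale with the annotated genes (grey boxes) of each locus; the horizontal axis is the distance in kb from the 5′ end of a hairpin, along its strand. Mir335 and Mir483 sit within the spans of Mest and Igf2, Mir675 within H19, 77.8 kb downstream of Mir483, and Mir298 and Mir296 lie 13.7 kb or more downstream of Nespas.

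Counts are given as CPM, same-strand reads of a gene per 1000000 same-strand reads of all microRNA genes in that library. These totals were 2672454 reads in replicate 1 and 4292012 in replicate 2, so a read was worth 0.374 and 0.233 CPM. Expression was called where both replicates reached 1 CPM. All 5 members were expressed, where 16.7% of all annotated microRNA genes were. In each sample the order of the levels was Mir335, Mir483, Mir298, Mir296 and Mir675, from a mean of 12374 CPM down to 30.1 CPM. The 5 genes held 1.67% of microRNA gene counts in replicate 1 (exact 95% binomial interval 1.66 to 1.69) and 1.83% in replicate 2 (1.81 to 1.84). The mean was 1.75% ± 0.109 (SD, n = 2). The intervals cover counting error only.

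Mir335, the Mest intron gene, which has been studied as a regulator of mesenchymal progenitor cells, was the most abundant member. It had 31930 reads in replicate 1 and 54942 in replicate 2, or 11948 and 12801 CPM. The mean of 12374 ± 603 CPM (SD, n = 2) put it at rank 18 of all microRNA genes, above 95.1% of the expressed ones. All ranks given here are among reads assigned to a gene. Multiply aligned reads, 52.7% and 52.4% of the libraries, are assigned to none, so the members' ranks could be lower if those reads were placed. It made up 71.5% of the members' reads in replicate 1 and 70.1% in replicate 2. Most reads of the 5 genes thus came from the Mest locus in both samples.

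The microRNA genes of Igf2 and H19, neighbours that are expressed from opposite parental chromosomes, differed widely in these libraries. Igf2 and H19 RNA themselves were not measured. Mir483, the Igf2 intron gene, had 10337 and 19010 reads in replicates 1 and 2, or 3868 and 4429 CPM. Its mean of 4149 ± 397 CPM (SD, n = 2) gave rank 39. Mir675, which is cut from the H19 RNA itself and has been linked to muscle differentiation, had 82 and 127 reads, or 30.7 and 29.6 CPM. Its mean of 30.1 ± 0.773 CPM gave rank 216, above 41.1% of expressed genes. Within a library, Mir483 reads outnumbered Mir675 reads 126-fold in replicate 1 (95% counting interval 101 to 159) and 150-fold in replicate 2 (126 to 180). The intervals of the 2 libraries overlapped, and both lay far from equal counts. Of the 5 members, Mir675 alone rested on few reads, and its interval ran from 24.4 to 38.1 CPM in replicate 1 and from 24.7 to 35.2 CPM in replicate 2. Its level was nonetheless well above the limit that a count of 0 allows, 3 reads or 1.12 CPM in replicate 1 and 0.699 CPM in replicate 2.

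The Gnas locus pair stood between these. Mir298 had 1778 and 3250 reads in replicates 1 and 2, or 665 and 757 CPM, with a mean of 711 ± 65.0 CPM (SD, n = 2) and rank 83. Mir296, known for a role in the growth of blood vessels, had 533 and 1005 reads, or 199 and 234 CPM, with a mean of 217 ± 24.5 CPM and rank 133. Mir298 was the higher of the pair in both libraries. It exceeded Mir296 3.34-fold in replicate 1 (95% counting interval 3.03 to 3.68) and 3.23-fold in replicate 2 (3.01 to 3.47). The proportion of the pair was thus nearly the same in both samples, and each interval held the other sample's ratio.

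To place that proportion, the microRNA genes that averaged at least 10 CPM were taken. All consecutive ones on 1 strand less than 10 kb apart were examined as pairs. Genes below that level were passed over, so a pair may span such a gene. There were 92 such pairs, 44 of them in the Dlk1-Meg3 cluster, and this comparison was chosen after the values of the pair had been seen. The median pair differed 4.46-fold in level, and Mir298 and Mir296 differed less than 55 of the pairs and more than 36. Between the replicates the ratio of Mir298 to Mir296 shifted 1.03-fold, where the median pair shifted 1.18-fold. It shifted less than 84 of the 92 pairs and more than 7. Both levels were higher in replicate 2, while their ratio stayed within its counting interval.

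The distance between neighbours in the order of levels exceeded the spread between the samples at every step. Mir335 had 3.09 and 2.89 times the reads of Mir483 in replicates 1 and 2. Mir483 had 5.81 and 5.85 times those of Mir298. Mir296 had 6.50 and 7.91 times those of Mir675. No member's higher sample reached the lower sample of the member above it. Counts were not divided by length. Division by hairpin length, 73 to 98 nt, could not change the order, because these lengths differ less than the levels do. The length of the reads and the arm they came from are not in the counts. Whether the members are captured with equal efficiency was not tested.

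**Figure D2:**
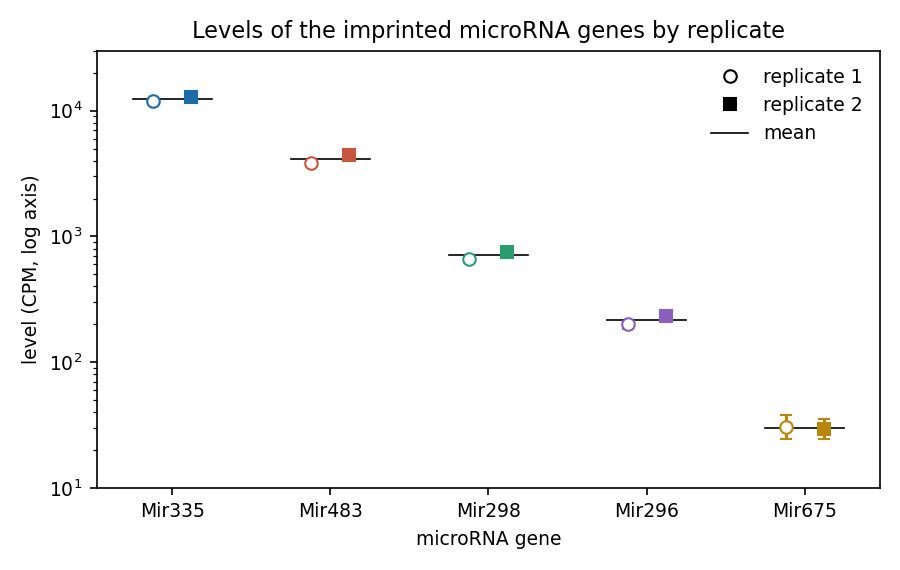
The level of each member in CPM (vertical log axis) is plotted for replicate 1 (open circles) and replicate 2 (filled squares), with the exact 95% binomial interval as error bars and the mean as a line. The samples of a member lie close together, and no 2 members overlap, from Mir335 at 12374 CPM to Mir675 at 30.1 CPM.

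**Figure D3:**
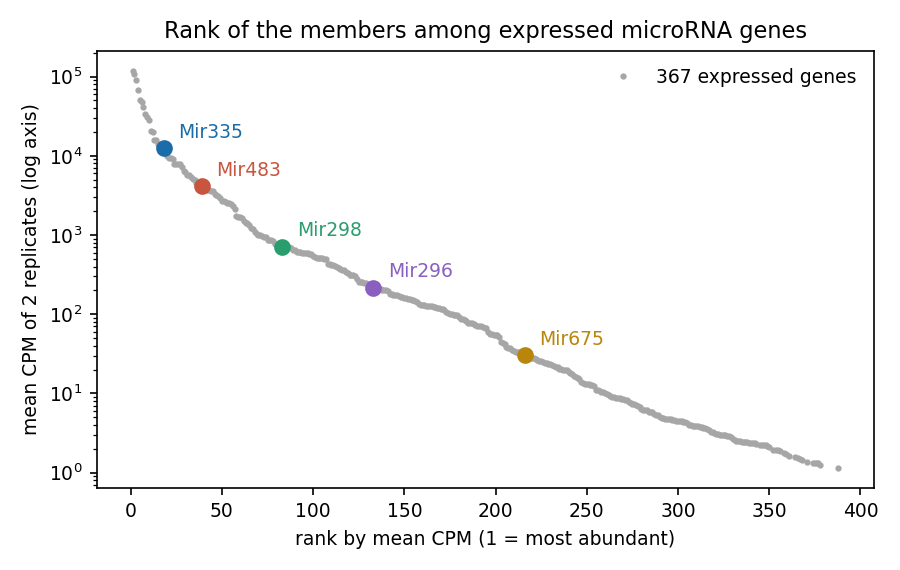
The mean CPM of the 367 expressed microRNA genes (vertical log axis) is plotted against their rank among all genes (horizontal axis), with the members in colour. Mir335 and Mir483 fall in the steep upper part at ranks 18 and 39, and Mir675 in the lower part at rank 216.

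Genes with the most similar levels were found by the Euclidean distance over log2(CPM + 1) in the 2 samples. Likeness over 2 samples describes level alone. Mir335 was nearest to Mir487b (distance 0.20), Mir139 (0.22) and Mir431 (0.23), of which Mir487b and Mir431 belong to the Dlk1-Meg3 cluster. Mir483 was nearest to Mir214 (0.07), at 4045 and 4508 CPM, followed by Mir125a and Mir151. Mir298 was nearest to Mir455 (0.05), Mir665 of the Dlk1-Meg3 cluster (0.05) and Mir92-1 (0.07). Mir296 was nearest to Mir574 (0.09), Mir34a (0.10) and Mir503 (0.16), and Mir675 to Mir187 (0.14), Mir378d (0.17) and Mir184 (0.22).

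The replicates differed little in these genes. Mir335 was 1.07-fold higher in replicate 2 (95% counting interval 1.06 to 1.09). Mir483 was 1.15-fold (1.12 to 1.17), Mir298 1.14-fold (1.07 to 1.21) and Mir296 1.17-fold (1.06 to 1.31) higher there. For Mir675 the ratio was 0.964 (0.725 to 1.29), so at this depth no difference was detectable. The interval thus excluded 1 in 4 of 5 members, all higher in replicate 2 and none lower. Over the 260 genes that averaged at least 10 CPM, 33.1% had an interval above 1 and 25.8% an interval below 1. With 1 library on each side, these ratios compare libraries and carry no p-value.

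The size of the differences was ordinary. The members' median difference was 1.14-fold and that of the 260 genes 1.13-fold. Of the 260 genes, 42.3% lay farther apart between the replicates than Mir296, the member that differed most. For Mir335 that share was 72.3%, and for Mir675 it was 85.4%. On the log2 scale the ratio (replicate 2 over 1) had a median of 0.19 in the members and 0.04 in all 260 genes. Of all 260 genes, 140 (53.8%) were higher in replicate 2. In the Dlk1-Meg3 cluster the median was 0.18, with 41 of 48 compared genes higher there. In the Sfmbt2 genes it was 0.36, with 6 of 6. With 1 library on each side, whether imprinted loci share this direction was not tested.

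**Figure D4:**
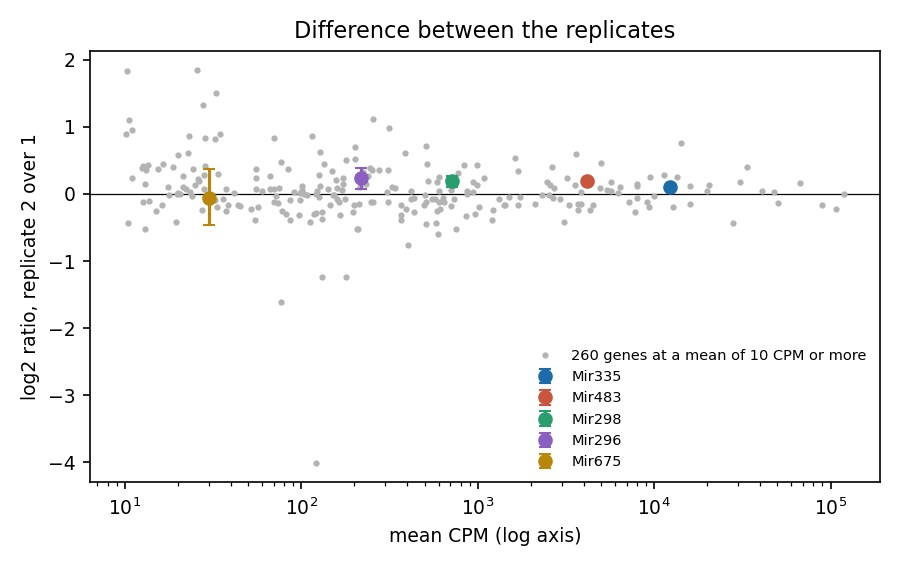
The log2 ratio of replicate 2 over replicate 1 (vertical axis) is plotted against the mean CPM (horizontal log axis) for 260 genes (grey), with the members in colour and their 95% counting intervals as error bars. The members lie close to 0, between -0.05 for Mir675 and 0.23 for Mir296, within the cloud of the other genes.

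Other imprinted microRNA loci were set beside the members as a description. In the Dlk1-Meg3 cluster on chromosome 12, from Mir770 to Mir3072, 54 of 65 genes were expressed, with a median of 605 CPM. The members' median was 711 CPM. Of the Dlk1-Meg3 genes, 4 exceeded Mir335, 10 exceeded Mir483 and 46 exceeded Mir675. Of 119 microRNA genes within Sfmbt2, an imprinted gene whose intron holds many near-identical hairpins, 7 were expressed, with a median of 41.7 CPM. None of those reached Mir298, and 1 exceeded Mir296. Reads that fit several Sfmbt2 copies may enter no count, so those levels may be too low. In sum over all genes, the Dlk1-Meg3 cluster held 20.8% ± 1.99 of counts (SD, n = 2), the members 1.75% and the Sfmbt2 genes 0.0554% ± 0.0096.

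Host class was compared in the same way. These classes overlap the lists above. They include the genes of the Dlk1-Meg3 cluster, and the highest gene without a host was one of those. Medians of the classes without that cluster were not computed. Among 979 microRNA genes that overlap a protein-coding gene on the same strand, 175 were expressed, with a median of 32.6 CPM. Mir335 exceeded all but 7 of this class and Mir483 all but 14. Among 224 genes with a non-coding host only, 79 were expressed, with a median of 151 CPM, and Mir675 lay below 57 of the class. Among 999 genes without a host, 113 were expressed, with a median of 158 CPM. Mir298 and Mir296 both lay above that median, with 28 and 49 genes of the class above them. Mir675 was thus the only member below the median of the expressed genes of its own class.

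**Figure D5:**
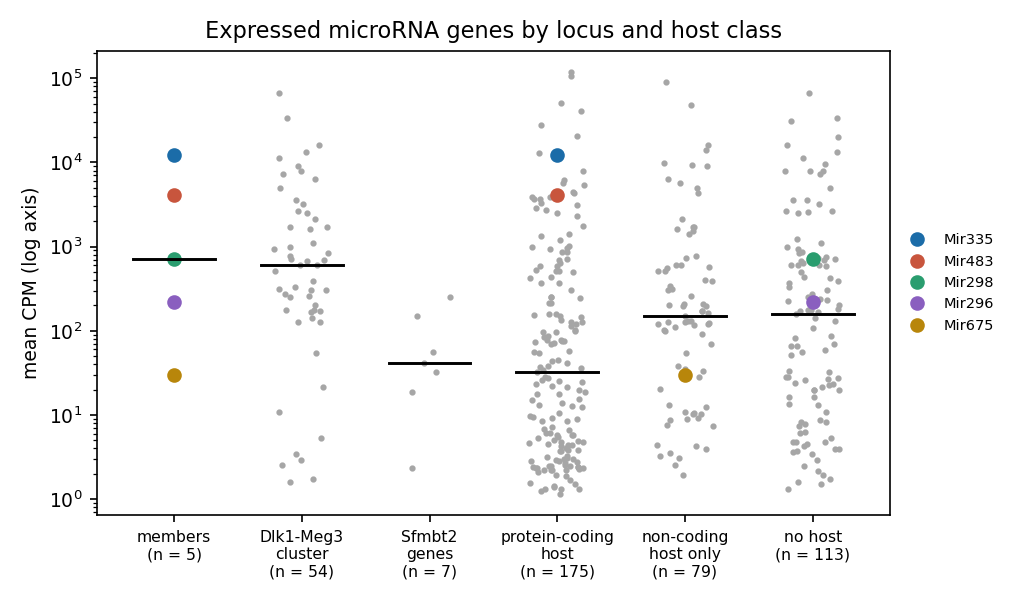
The mean CPM of expressed microRNA genes (vertical log axis) is shown by list and host class (horizontal axis), with 1 grey point per gene, the median as a line and the members in colour. Mir335 and Mir483 lie far above the median of genes with a protein-coding host (32.6 CPM), and Mir675 lies below the median of genes with a non-coding host only (151 CPM).

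The RNA was from whole muscle, in which a lower level per cell and fewer cells of a type cannot be told apart. Of 8 striated muscle microRNA genes, 7 were expressed, summing to 96243 CPM in replicate 1 and 85727 CPM in replicate 2, nearly all from Mir206. Multiply aligned reads are listed apart from the genes, so levels of duplicated genes such as Mir1a, Mir133a, Mir124a and Mir9 may be too low. Endothelial Mir126a and Mir126b summed to 118725 and 119268 CPM, and 4 smooth muscle and fibroblast genes to 29051 and 29625 CPM. The erythroid pair summed to 437 CPM in replicate 1 and 185 CPM in replicate 2, 4 leukocyte genes to 1185 and 853 CPM, and hepatocyte Mir122 had 229 and 14.2 CPM. Of 7 neural genes, 5 had no read, all of them copies of Mir124a or Mir9. Such zeros do not show absence, because reads that fit several copies may enter no count. The neural list summed to 17.2 and 49.9 CPM, and 3 pancreatic islet genes summed to 16.1 and 21.4 CPM. Mir335, Mir483, Mir298 and Mir296 were slightly higher in replicate 2. There the muscle, erythroid, leukocyte and hepatocyte sums were lower. The endothelial, smooth muscle and fibroblast, neural and islet sums were higher, the neural one almost wholly through Mir137 (17.2 and 48.9 CPM). Within the muscle list, Mir206, Mir486, Mir1a-2 and Mir133a-1 were lower, while Mir499, Mir133b, Mir1a-1 and Mir133a-2 were higher. In other lists, Mir223 was higher, and Mir126b, Mir21a, Mir145a and Mir7-1 were lower, each against the sum of its list. The part of these cell types in the members' levels was not tested.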

How the data were processed

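Small RNA was sequenced from 1 group of 2 replicates. The authors deposited raw read counts per microRNA gene, on mm10 with GENCODE M21, per the file headers in the accompanying text. The aligner and counting program are not stated in the sources used. Of 3 count columns, the same-strand column was used. The 4 summary lines, which name no gene, took 66.6% (replicate 1) and 64.6% (replicate 2) of the reads and were kept out of totals; multiply aligned reads made up 52.7% and 52.4%.

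All 2202 identifiers matched GENCODE. Levels are CPM with exact Clopper-Pearson 95% intervals, and ratios have exact conditional binomial intervals. The script for the ratio intervals was run on simulated counts whose only random error was counting error. That run does not bear on the spread between libraries. No groups were compared and no p-value was computed. The rule for named genes took the members, the 3 nearest by level per member, seed partners, neighbours within 10 kb and muscle markers. No seed partner was found among the sequences searched. Other cell type markers and the end genes of the Dlk1-Meg3 cluster are named as parts of lists. The members and lists were chosen with earlier results of these data known.

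Alternatives used edgeR 4.0.16 (TMM) and DESeq2 1.42.0 size factors in R 4.3.3. Python 3.11.15, scipy 1.17.1 and RNAfold 2.7.2 were used.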

Additional observations from a re-analysis of the deposited data

How the results depend on the processing

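Of 71 alternative values, 16 left out a replicate, which with 2 replicates cannot move a mean beyond their SD, and 2 were looser thresholds that could lose no member. Of the other 53, 34 stayed within the replicate spread or counting interval of the reported value and 19 moved beyond it. No ratio whose interval excluded 1 changed direction. That of Mir675, whose interval included 1, passed from 0.964 to 1.02 relative to all reads. All 5 members were expressed at 10 CPM in both replicates and under each strand column and normalization tried, and 4 had a replicate ratio whose interval excluded 1 under each strand column and normalization tried. Counting without regard to strand left opposite-strand overlaps uncounted, which shrank the totals and raised Mir335 to 16643, Mir483 to 5578, Mir298 to 956, Mir296 to 291 and Mir675 to 41.0 CPM, and the members' share to 2.35%. Per 1000000 of all reads in the file, the levels were 4259, 1429, 245, 74.7 and 10.4 in the same order, and the share 0.602%. DESeq2 size factors gave Mir675 29.3 CPM. The replicate ratio of Mir335 was 1.047 without regard to strand, 1.050 with TMM and 1.135 relative to all reads, and that of Mir483 1.213 relative to all reads. Divided by hairpin length, a choice made after seeing the data, Mir483 over Mir675 was 158.6 and Mir298 over Mir296 3.165. Leaving out a replicate moved Mir335 between 11948 and 12801 CPM, and the ratio of Mir483 to Mir675 between 126 and 150. Depth limits Mir675 most, at 82 and 127 reads.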

Other observations

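Mir335, Mir483, Mir298 and Mir296 had 0 opposite-strand reads in both libraries, which allows up to 1.12 CPM in replicate 1 and 0.699 CPM in replicate 2. Mir675 had 0 such reads in replicate 1 and 3 in replicate 2, at the limit of 3 reads that a count of 0 allows, beside 127 reads on its own strand. To have no opposite-strand read in either library was the usual state of the table. It held for 92.4% of the 367 expressed genes and for 4 of the 5 members (80%), all but Mir675.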
